A study of Mus musculus with 6 samples.

Results

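The upper tiers of the mitogen-activated protein kinase (MAPK) cascade were represented by 7 of the 254 genes on an nCounter inflammation panel, picked by gene symbol. They were the MAP3K genes Map3k1, Map3k5, Map3k7 and Map3k9 and the MAP2K genes Map2k1, Map2k4 and Map2k6. Transcripts were counted with barcoded probes, without amplification, in total RNA of the full thickness of skin from the backs of SKH-1 mice, a hairless immunocompetent strain. The UV plus BMS-202 group (n = 3) had BMS-202, which blocks the checkpoint ligand PD-L1, spread on the skin at 8 mM in 200 µl. The UV group (n = 3) received acetone, the vehicle. In both groups the agent was applied 24 h before, 1 h before and directly after an acute dose of solar simulated light (UVA at 90 kJ/m2, UVB at 6 kJ/m2), with harvest 24 h later. Every sample was therefore irradiated, and unirradiated skin was not analysed here. The labels give 3 mice per group without tying samples to mice, the titles of the UV group carry WT, and neither age nor sex is given in the sources used here. The question was whether blocking PD-L1 from the surface changes stress signalling transcripts in irradiated skin.

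MAP3K enzymes sense stress and receptor signals and phosphorylate MAP2K enzymes, which in turn phosphorylate the terminal kinases ERK, JNK and p38 on a threonine and a tyrosine. Ultraviolet light is a classical activator of the JNK and p38 arms in keratinocytes, and the cascade runs through phosphorylation, which transcript levels do not measure. Map3k1 encodes MEKK1, a JNK pathway kinase. Map3k5 encodes ASK1, a kinase held inactive by thioredoxin and released by oxidative stress. Map3k7 encodes TAK1, which relays IL-1, TNF and Toll-like receptor signals to JNK, p38 and NF-kB. Map3k9 encodes MLK1, a mixed lineage kinase. Map2k1 encodes MEK1, which activates ERK, Map2k4 encodes MKK4, which activates JNK and p38, and Map2k6 encodes MKK6, which activates p38.

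The deposited values read as counts multiplied by a factor per sample, which sets the glycolytic gene Gapdh to 6417 in every sample, with values below 20 written as 20. On that reading, which the labels do not state, total gene counts were 41843 to 45382 with BMS-202 and 143978 to 162091 with UV, while positive spike-in probes totalled 67957 to 73592 with BMS-202 and 78281 to 90723 with UV. The other 5 housekeeping genes all read lower with BMS-202, from 2.33-fold (Tubb5) to 10.6-fold (Gusb). The 3 samples of a group varied by little more than counting noise over the panel, with a ratio of chi-square to its degrees of freedom of 1.10 with BMS-202 (232 genes) and 1.11 with UV (200 genes), so p-values measure a spread that may be technical. No keratinocyte or fibroblast marker of the 10 listed was on the panel, so the skin label could not be checked against them. The summed level of the T cell markers on the panel (5 of 7 listed) was 369.9 to 383 with BMS-202 and 136 to 161 with UV, and that of macrophage and monocyte markers (5 of 10) was 679.7 to 762 with BMS-202 and 1248 to 1313 with UV. The macrophage and monocyte markers went both ways, with 2 lower, 1 higher and 2 not passed: Mrc1 had a log2 difference of -2.44 and Chi3l3 of 3.36. Neutrophil markers (2 of 6) summed to 183 to 221 with BMS-202 and 119 to 145 with UV, and the muscle marker Myl2 (1 of 5) read 96.9 to 111 with BMS-202 and 20 in all UV samples. Of these markers none was at the floor in all 6 samples, but Cd40lg, Fasl, Ccr4, Cxcr1 and Myl2 read 20 in all UV samples. Such genes could enter the test only by reading higher with BMS-202. Ltb (23.3 with UV) lay under the highest UV limit of the negative probes, 26.6. Among T cell markers only Cd4 stood above these limits in both groups (129 with BMS-202, 64.3 with UV). The neutrophil marker Cxcr2 read 124 with BMS-202 and 114 with UV and did not pass. The part of these markers in the results was not tested, and fewer cells of a type cannot be told apart from less RNA per cell.

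Relative to Gapdh, 6 of the 7 kinase genes read lower with BMS-202 and Map3k9 read higher. The falls were 3.71-fold for Map3k7, 4.54-fold for Map3k1, 5.82-fold for Map2k1, 6.36-fold for Map3k5, 6.42-fold for Map2k4 and at least 1.91-fold for Map2k6. All 7 passed limma's test, and the samples of the groups did not overlap for any of them. Across the panel 93.3% of 240 tested genes passed, 55% lower and 38.3% higher, and the groups did not overlap in 95% of tested genes. Of these tested genes, 38 sat on the floor in the whole UV group. They could enter the test only by reading higher in every BMS-202 sample, which fixed their direction and kept the groups apart. Genes on the floor in the whole BMS-202 group, such as Map2k6, could likewise enter only by reading lower. The shares and median of the panel, here and below, are in part set by this condition for entry. Passing the test does not set the kinase genes apart. Log2 differences are BMS-202-treated minus vehicle-treated skin, computed on log2(value + 1), and their median was -2.18 over the 7 genes and -0.56 over the 240.

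**Figure D1:**
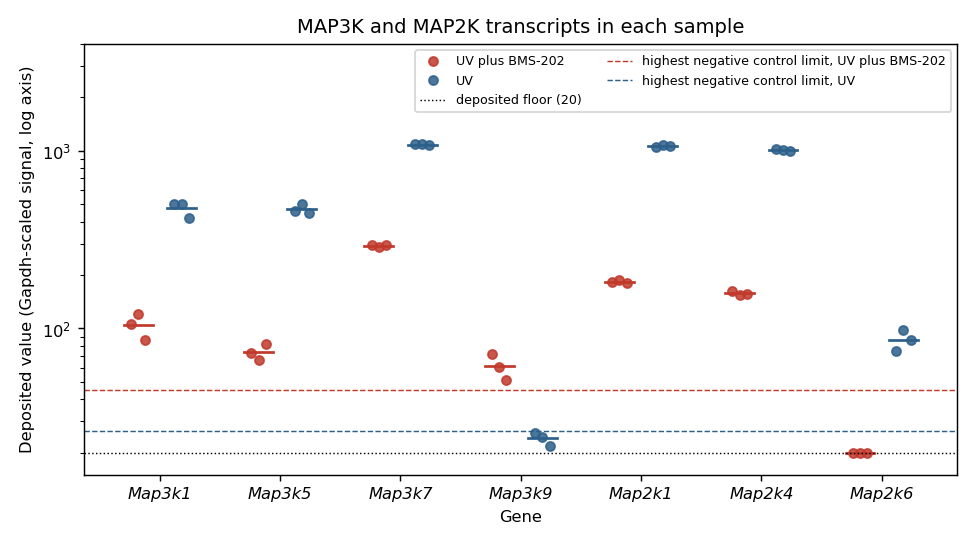
Deposited value of each kinase gene (log axis) in the 3 UV plus BMS-202 samples (red, left) and the 3 UV samples (blue, right). Points are samples, bars are group means, the dotted line is the floor of 20 and the dashed lines are the highest negative control limits of each group (45.3 with BMS-202, 26.6 with UV). Map2k6 lies on the floor with BMS-202, and Map3k9 lies under the limit with UV.

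Among the MAP3K genes, Map3k1 read 107, 121 and 86.3 with BMS-202, against 500.4, 503 and 419.8 with UV. The lowest UV sample was well above the highest BMS-202 sample. Its log2 difference was -2.18 ± 0.12 (SE, adjusted p = 2.62e-08). Map3k1 was also the most variable of the kinase genes that were measured in both groups, with a coefficient of variation of 16.5% with BMS-202 and 9.99% with UV.

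Map3k5, the ASK1 gene, read 72.7, 66.8 and 81.9 with BMS-202, against 458, 505 and 446 with UV. The BMS-202 values rested on 56 to 75 counts and stood 1.63 times above that group's highest negative control limit (mean + 2 SD of the 8 negative probes, scaled), whereas the UV values rested on 494 to 602 counts. The log2 difference was -2.66 ± 0.092 (SE, adjusted p = 6.33e-10). Of the kinase genes measured in both groups, it and Map2k4 had the deepest falls, and their intervals overlapped (95% interval -2.86 to -2.45 for Map3k5 and -2.79 to -2.56 for Map2k4).

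Map3k7, the TAK1 gene, read 294, 289 and 295 with BMS-202, against 1087, 1087 and 1083 with UV. The samples of each group lay close together, with coefficients of variation of 1.16% with BMS-202 and 0.213% with UV. They rested on 242 to 270 counts with BMS-202 and 1173 to 1296 with UV. Counting noise alone would be expected to spread such counts more widely, so the closeness of 3 values is not read as a trait of the gene. Its log2 difference was -1.89 ± 0.043 (SE, adjusted p = 2.86e-11), the smallest of the falls among the genes measured in both groups.

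Map3k9, the MLK1 gene, read 71.5, 60.9 and 51.3 with BMS-202, against 25.95, 24.3 and 21.8 with UV. It was the only kinase gene of the set to read higher with BMS-202. The UV mean of 24.0 ± 2.08 (SD, n = 3) lay under the UV negative control limit of 26.6. The BMS-202 mean of 61.2 ± 10.1 was 2.30 times that limit but only 1.35 times the BMS-202 limit of 45.3. Background was not subtracted and that limit is higher with BMS-202, so 2.30 is no lower bound on the transcript's change. The values rested on 47 to 59 counts with BMS-202 and 25 to 29 counts with UV. The fitted log2 difference was 1.30 ± 0.12 (SE, adjusted p = 2.32e-06).

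Among the MAP2K genes, Map2k1 read 183, 187 and 181 with BMS-202, against 1056, 1085 and 1067 with UV. Its log2 difference was -2.53 ± 0.047 (SE, adjusted p = 7.70e-12). Map2k4 read 162, 154 and 156 with BMS-202, against 1024, 1010.0 and 999 with UV. The 2 genes moved almost alike: Map2k4 had a log2 difference of -2.68 ± 0.050 (SE, adjusted p = 7.70e-12), and their profiles over the 6 samples were the closest of any pair in the set (root mean square distance 0.0796 on the log2 scale after each gene's mean was subtracted).

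Map2k6, the MKK6 gene, was listed at 20 in all 3 BMS-202 samples, against 75.1, 98.15 and 86.4 with UV. It was above the floor in UV skin only, so it could enter the test only by differing. The UV mean of 86.5 ± 11.5 (SD, n = 3) stood 3.26 times above the UV negative control limit, on 81 to 117 counts. The fitted log2 difference of -2.05 ± 0.11 (SE, adjusted p = 1.41e-08) depends on where the floor was set. Against the BMS-202 negative control limit of 45.3 Map2k6 was at least 1.91-fold lower with BMS-202.

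The start regions of Map2k1, which fell, and Map3k9, which rose relative to Gapdh, are shown to give the sequence beside the opposite readings. Each run is the 250 bases before the annotated start (RefSeq, GRCm38.p6), 5′ to 3′ on the gene's strand, with the GC box letters GGGCGG, on either strand, in capitals. Map2k1 lies at chr9:64253606-64253855 and Map3k9 at chr12:81781171-81781420, both on the minus strand.
Map2k1: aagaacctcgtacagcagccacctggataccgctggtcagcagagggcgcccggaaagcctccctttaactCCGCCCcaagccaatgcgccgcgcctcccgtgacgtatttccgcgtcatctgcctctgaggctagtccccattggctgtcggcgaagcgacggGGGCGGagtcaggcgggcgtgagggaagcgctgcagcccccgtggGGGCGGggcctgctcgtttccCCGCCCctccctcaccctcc
Map3k9: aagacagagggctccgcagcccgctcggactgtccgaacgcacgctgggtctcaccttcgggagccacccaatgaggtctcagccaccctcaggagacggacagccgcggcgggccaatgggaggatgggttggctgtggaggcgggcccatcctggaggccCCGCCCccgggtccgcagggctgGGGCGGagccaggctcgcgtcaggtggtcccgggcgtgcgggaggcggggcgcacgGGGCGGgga
Map2k1 holds 4 matches and Map3k9 holds 3, and 32.7% of 32851 such windows hold at least 1. Windows were found for all 7 genes, 10 in all because Map2k4 and Map2k6 have several starts. GGGCGG occurs in 6 of the 10 windows, which belong to 6 genes, all but Map2k4. For Map2k6 the match lies before an inner start, and the window at its outer start holds none. TGACTCA, the AP-1 letters that Fos and Jun dimers recognise, occurs in none of the 10 windows and in 4.46% of all windows, and TATAAA occurs in 1 of the 10 and in 12.4% of all. A match is a description of these letters and not a binding site.

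The falls have to be read against genes at the same level, because the difference followed the level in UV skin across the panel. For each kinase gene the panel genes with a UV mean within a factor of 1.5 were taken, without the other kinase genes. All 19 genes at the level of Map2k1 read lower, with a median log2 difference of -2.38, and 5 of them had a lower difference than Map2k1. All 22 genes at the level of Map2k4 read lower too (median -2.38), with 4 below it. Map2k1 and Map2k4 thus differed by 0.15 and 0.30 from genes of like level.

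Map3k7 and Map3k5 stood further from their peers, on opposite sides. Of 19 genes at the level of Map3k7, 15 had a lower difference, and Map3k7 lay 0.50 above their median of -2.38. Of 40 genes at the level of Map3k5, 36 had a higher difference, and Map3k5 lay 1.03 below their median of -1.62. Map3k1, at nearly the same level as Map3k5, lay 0.53 below a median of -1.65, with 7 of 40 genes lower.

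Map2k6 and Map3k9 have no position of this kind, because the floor decides it. Of 29 genes at the UV level of Map2k6, 19 read higher and 10 lower (median 0.23), and 3 of the 29 were, like Map2k6, at 20 in all BMS-202 samples. Map3k9 read higher, as did 63 of 65 genes at its UV level, but 38 of the 65 sat on the floor in the whole UV group and were tested only because they exceeded it with BMS-202. These positions are descriptions with no test.

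**Figure D2:**
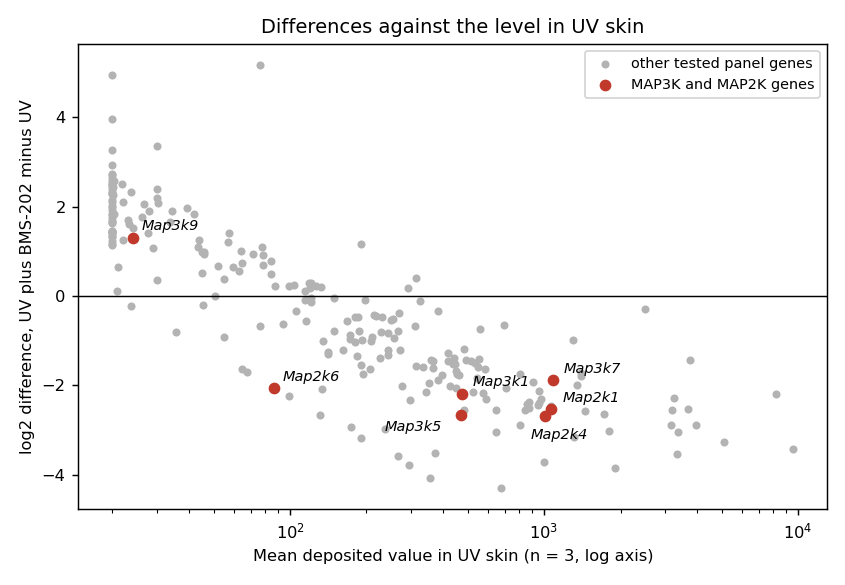
Log2 difference, UV plus BMS-202 minus UV (vertical), against the mean deposited value in UV skin (horizontal, log axis) for 240 tested genes, with the 7 kinase genes in red. Most genes low in UV skin lie above 0 and most genes high in UV skin below it, Map3k5 lies under most genes around it, and Map3k7 lies above most of those near it.

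Ratios between kinase genes of a sample do not depend on its scaling factor. For the 5 genes measured in both groups (without Map2k6 and Map3k9, a choice made after the values were seen), 10 pairs were compared, and the ratio did not overlap between the groups in 6. Of the 14028 pairs of the 168 panel genes measured in both groups, 89.8% did not overlap, so separated ratios are not a trait of these kinases. With 3 samples against 3 the exact permutation test cannot go below p = 0.1, which those 6 pairs reached, so no pair could pass at 0.05. Map3k7 gained on Map2k4 by 0.79 on the log2 scale. The log2 ratio of Map2k4 to Map3k7 was -0.89 ± 0.031 with BMS-202 and -0.10 ± 0.015 with UV (SD, n = 3). With BMS-202 it rested on 129 to 143 counts of Map2k4 and 242 to 270 of Map3k7. An SD of 3 samples can fall under counting noise by chance, so such SDs may understate the uncertainty of a ratio. Map3k5 to Map3k7 was -1.98 ± 0.13 with BMS-202 and -1.21 ± 0.092 with UV, and Map2k1 to Map3k7 -0.67 ± 0.041 with BMS-202 and -0.021 ± 0.019 with UV. The gap to Map3k7 widened in all 3 of these pairs, whereas the ratio of Map3k1 to Map3k7 overlapped between the groups (difference -0.29, exact p = 0.2).

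The ratio of the MEK1 to the MKK4 gene moved little. The log2 ratio of Map2k1 to Map2k4 was 0.22 ± 0.056 with BMS-202 and 0.081 ± 0.032 with UV (SD, n = 3), a difference of 0.14 without overlap. With BMS-202 this ratio rested on 151 to 166 counts of Map2k1 and 129 to 143 of Map2k4. A difference this small cannot be told apart from counting noise, though the groups did not overlap. Map2k4 and Map3k5 kept almost the same ratio, with a difference of -0.019 and overlapping groups (exact p = 0.8). Map3k5 with BMS-202 stood only 1.63 times above that group's negative control limit. No background was subtracted, so ratios to Map3k5 are uncertain there. With quantile normalization, which is not a factor per sample, the log2 differences were -1.10 for Map2k4 and -2.52 for Map3k5. Relative to the mean of the other 4 genes of its sample, Map3k7 was 1.54 times its UV level with BMS-202, Map2k1 0.880, Map3k5 0.792 and Map2k4 0.779 times, each without overlap, and Map3k1 was 1.20 times with overlap (exact p = 0.3). With all 7 genes in the average, Map3k9 lay 3.64 higher and the other 6 lay 0.089 to 1.01 lower, since Map3k9 enters each of their averages. Both Map3k1 (-0.43) and Map3k7 (-0.089) thereby turned sign against the 5-gene values.

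**Figure D3:**
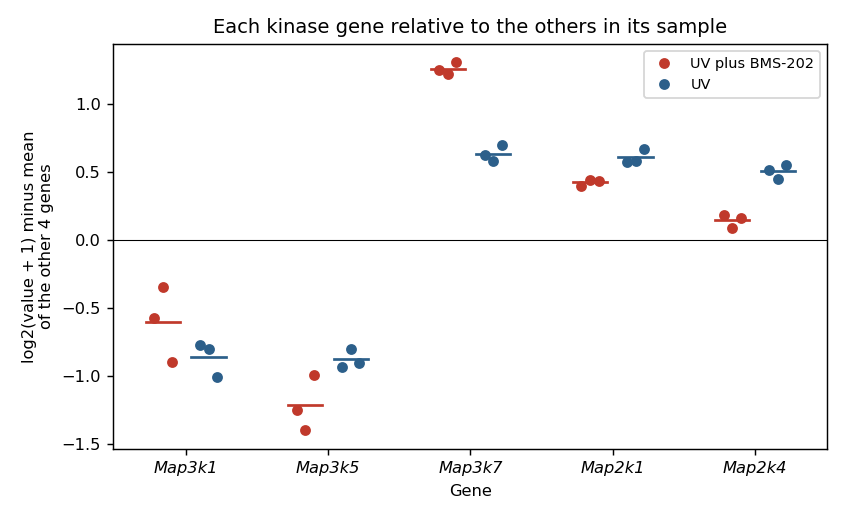
Log2(value + 1) of each of 5 kinase genes minus the mean of the other 4 in the same sample, for the 3 UV plus BMS-202 samples (red, left) and the 3 UV samples (blue, right), with bars at the group means. Map3k7 is higher with BMS-202, Map2k1, Map2k4 and Map3k5 are lower, and the Map3k1 groups overlap.

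The direction against the reference depended on the scaling for most of the set. With positive spike-in scaling the 5 genes measured in both groups read lower by -3.06 (Map2k4) to -2.27 (Map3k7), and with panel median scaling by -2.35 to -1.56. On these scales 6 kinase genes were called lower, where 59.2% and 50.4% of the panel were, and Map3k9 was called higher (0.93 and 1.51), where 33.8% and 42.5% were. With the 6 housekeeping genes, Map2k4 (-0.42), Map3k5 (-0.41) and Map2k1 (-0.28) were still called lower, where 14.2% of the panel was and the panel median was 1.35. Map3k7 turned to 0.37 and was called higher (adjusted p = 5.04e-05), as was Map3k9 (1.55), where 76.7% of the panel was, and Map3k1 turned to 0.068 (adjusted p = 0.673).

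With the 5 housekeeping genes other than Gapdh, none of the 7 was called lower, where 6.25% of the panel was. Map3k7 (0.82), Map3k1 (0.52), Map2k1 (0.17) and Map3k9 (1.54) were called higher, where 84.2% of the panel was, and Map3k5 (0.039, adjusted p = 0.713) and Map2k4 (0.029, adjusted p = 0.362) had no call. Map2k6 gave no value on either housekeeping scale, because all 6 of its values lay at or under the raised floor. Quantile normalization kept 6 genes lower, from -2.52 for Map3k5 to -0.11 for Map3k7, where 40% of the panel was called lower. Map3k9 was higher on every scale except quantile normalization, where it read -0.17 (adjusted p = 0.177). On both housekeeping scales its UV samples sat at the raised floor.

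A factor per sample shifts all genes alike and leaves the order among genes of like UV level as it is, apart from values at the floor, so only quantile normalization could change it. There Map3k7 had 14 of 19 genes below it, Map3k5 had 4 of 40, Map2k1 5 of 19, Map2k4 4 of 22 and Map3k1 8 of 40. The distance to the median of those genes grew to -2.05 for Map3k5 and -0.96 for Map3k1, and was 0.51 for Map3k7.

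**Figure D4:**
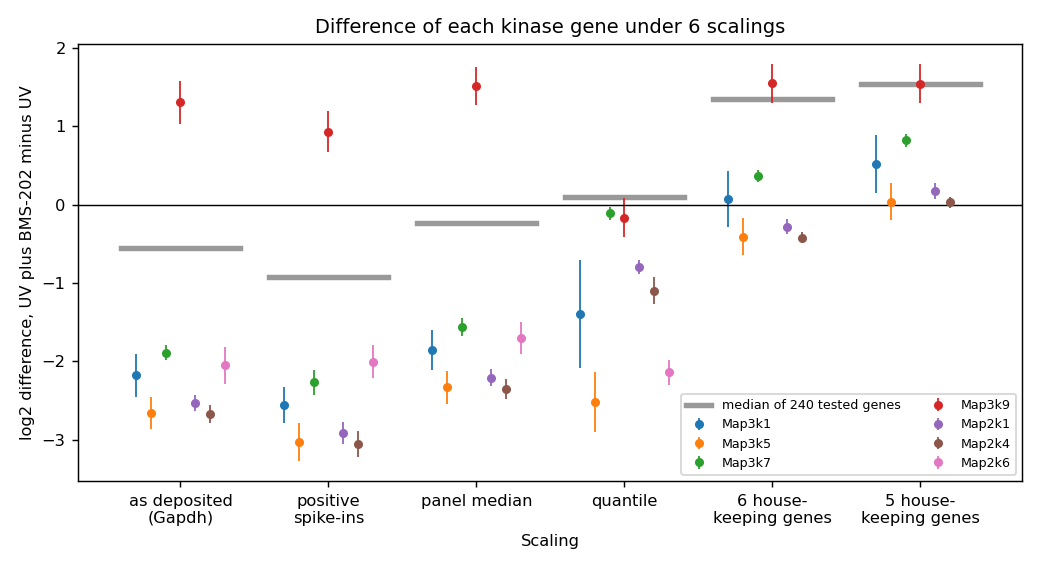
Log2 difference, UV plus BMS-202 minus UV, of each kinase gene under 6 scalings, with 95% intervals from limma; grey bars are the median of the 240 tested genes. The 5 genes measured in both groups lie below the grey bar on every scale, while their side of 0 changes with housekeeping scaling, where Map2k6 has no value.

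Genes around these kinases in the cascade moved in both directions. The panel held 8 MAP kinase and effector kinase genes. Of the 7 tested, 6 were lower and 1 higher (median log2 -1.88), beside 55% lower and 38.3% higher over the panel. Mapk3, which encodes the MEK1 substrate ERK1, fell to 274 ± 8.63 with BMS-202, against 1719.5 ± 34.0 with UV (log2 -2.64), and Mapk14, which encodes p38 alpha, a substrate of MKK6 and MKK4, fell by 2.54 on the log2 scale. The JNK1 gene Mapk8 fell by 1.62. Rps6ka5, the MSK1 gene, rose to 133 ± 5.34 with BMS-202, against 56.9 ± 5.97 with UV (log2 1.22), and Mknk1, a kinase gene downstream of ERK and p38, was the next highest at -1.39. Mapkapk5 sat on the floor in 1 BMS-202 sample and all 3 UV samples and was not tested.

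Of 15 genes for activators, adaptors and GTPases upstream of the MAP3K tier, 13 were lower and 2 higher (median log2 -1.20), beside the same 55% and 38.3%. The adaptor gene Shc1 fell to 109 ± 15.7 with BMS-202, against 806 ± 41.5 with UV (log2 -2.88). Rac1, a GTPase that acts on MAP3K enzymes, fell to 539.6 ± 32.6 with BMS-202, against 3964 ± 30.4 with UV (log2 -2.88). Prkca, the protein kinase C alpha gene, rose to 153 ± 6.85 with BMS-202, against 57.6 ± 12.2 with UV (log2 1.41).

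Of 12 transcription factor genes that MAP kinases phosphorylate or induce, 8 were lower and 4 higher (median log2 -1.39), close to the panel's 55% and 38.3%. Mef2c, listed as Mef2c_Mm, a p38 target, read 20 in each of the 3 BMS-202 samples, against 355 ± 36.0 with UV (at least 7.83-fold lower against the BMS-202 limit), and the AP-1 gene Jun fell by 2.55. Creb1 rose to 98.5 ± 12.6 with BMS-202, against 22.0 ± 0.245 with UV (log2 2.11), where the UV level lay under the negative control limit. Its BMS-202 mean was 3.71 times that UV limit. Mef2b read 53.8 ± 2.96 with BMS-202, near that group's limit of 45.3, and 20 in all UV samples. Its BMS-202 mean was 2.02 times the UV limit of 26.6. Mef2b could enter the test only by reading higher with BMS-202. With the 6 housekeeping genes the medians of these 3 lists turned to 0.36, 1.03 and 0.77, and with the 5 other than Gapdh to 0.81, 1.48 and 1.05. Shc1, Rac1 and Mef2c read lower and Rps6ka5, Prkca, Creb1 and Mef2b higher on all 6 scales. On both housekeeping scales the UV samples of Rps6ka5, Prkca, Creb1 and Mef2b sat at the raised floor, as did the BMS-202 samples of Mef2c. The size of their differences there depends on that floor. Mapk3 (0.063), Mapk14 (0.16) and Jun (0.14) turned positive with those 5 genes, and Mapk8 and Mknk1 with both housekeeping scalings.

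**Figure D5:**
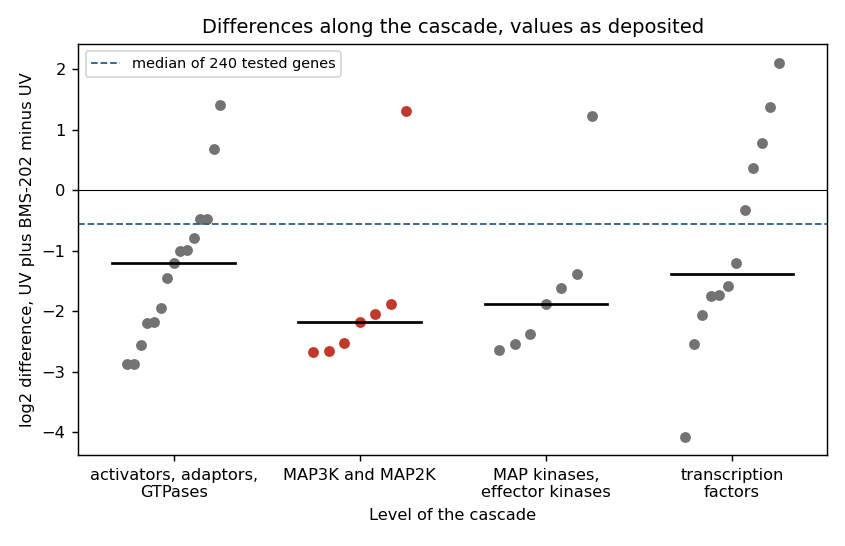
Log2 difference, UV plus BMS-202 minus UV, of the tested genes at each level of the cascade (15 activators, adaptors and GTPases, the 7 kinase genes in red, 7 MAP kinases and effector kinases, 12 transcription factors). Points are genes, black bars are medians of each level (-1.20, -2.18, -1.88 and -1.39), and the dashed line is the median of 240 tested genes, -0.56.

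By profile over the 6 samples, the nearest panel genes were found outside the set for each kinase gene, as the root mean square distance of mean-centred log2 values. Map2k1 lay closest to Mapk14 (0.0277) and the G protein subunit gene Gnb1 (0.0296), and Map2k4 to Mapk3 (0.0534) and Ppp1r12b (0.0613), a myosin phosphatase subunit gene at the floor with BMS-202. Map3k7 lay closest to the matrix protease gene Mmp3 (0.0444) and to Nfe2l2 (0.0535), which encodes NRF2. Map3k1 lay closest to Fos (0.0870) and Oas1a (0.140), and Map3k5 to the complement gene C4a (0.0887). Map2k6 lay closest to Ptk2 (0.0951), the focal adhesion kinase gene, and Irf1 (0.108). Because Map2k6 sat on the floor in all BMS-202 samples, its nearest genes depend on where the floor was set. Map3k9 lay closest to the complement C5 gene Hc (0.0883) and to Hmgb2 (0.0958), both at or near the floor in UV skin. With 2 groups this distance mostly measures how alike the group differences are.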

How the data were processed

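Per the labels, total RNA was extracted from full-thickness skin with a column kit and hybridised to an nCounter mouse inflammation panel (V2). The deposited values are a scaled signal (254 genes, 6 positive and 8 negative control probes). The scaling was read from the values: Gapdh does not vary, and each sample has a step of which 100% of its gene values over 20 are whole multiples (tolerance 0.006 plus a rounding allowance for large values). Control rows are unscaled counts. The labels state neither the software nor how background was handled nor why Gapdh was chosen.

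Groups came from the treatment label (n = 3 each). limma 3.58.1 in R 4.3.3 (trend, two-sided) was run on log2(value + 1) over the 240 of 248 endogenous genes above 20 in at least 3 of 6 samples, with Benjamini-Hochberg adjustment over all 240 at 0.05. On simulated data with 229 genes it found 93.1% of 2-fold and 100% of 4-fold changes, and called 0.581% of unchanged genes. The simulation drew both groups at the depth of the UV samples and with counting noise only. These rates therefore do not carry over to the BMS-202 samples, which had fewer counts. Exact two-sided permutation tests were used for ratios. Folds are ratios of group means. Where a group's mean lay under its highest negative control limit (mean + 2 SD), the fold was taken against that limit. No background was subtracted here, so such folds bound the readings only. Counts recovered by dividing by the step were used for depth, for the counts behind a value and to set replicates against counting noise, not in any test between the groups. After rescaling, all samples shared the highest rescaled floor. Panel median scaling used the 248 endogenous genes.

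Named genes were the 7 kinase genes, the 2 nearest genes to each, the 2 highest and 2 lowest of each pathway list and the housekeeping genes, and Mapk8 and Mapkapk5 were added after their values were seen. Results for 2 genes that the rule picks are not reported here. The kinase genes and lists were chosen with earlier results of these data known. RefSeq (GRCm38.p6) held all 7 symbols. The files name no genome build.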

Additional observations from a re-analysis of the deposited data

How the results depend on the processing

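Leaving out each sample in turn, the replicate block, limma without trend, no filter, a filter at 50 and a pseudocount of 10 kept the direction and call of all 7 kinase genes. For Map2k6, at 20 in all BMS-202 samples, the direction could not have changed in these fits. The highest adjusted p over these fits was 0.000123, for Map3k9. The samples share only a replicate number: deviations of same-numbered samples correlated at -0.0387 to 0.0180. The replicate block gave 90 genes higher and 132 lower, against 92 and 132.

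The scaling moved the panel counts to 184 higher and 34 lower (6 housekeeping genes) and to 202 and 15 (5 without Gapdh). The panel median moved by 1.91, 2.10, 0.32 (panel median), 0.65 (quantile) and -0.37 (spike-ins), with splits of 102 to 121, 99 to 96 and 81 to 142 for the last 3. Reversed values were, with the 6 housekeeping genes, 0.068 (Map3k1) and 0.37 (Map3k7), with the 5, 0.17 (Map2k1), 0.029 (Map2k4), 0.52 (Map3k1), 0.039 (Map3k5) and 0.82 (Map3k7), and, with quantiles, -0.17 (Map3k9). The cause was not tested. Relative to the other 6 genes, quantiles gave 0.44 (Map2k1), 0.091 (Map2k4), -1.13 (Map2k6), -1.56 (Map3k5), 1.24 (Map3k7) and 1.18 (Map3k9). A pseudocount of 10 gave 0.069 (Map2k6) and 3.26 (Map3k9). The 5-gene average, added after seeing the data, gave -0.18 (Map2k1), -0.36 (Map2k4), 0.26 (Map3k1), -0.34 (Map3k5) and 0.62 (Map3k7), because it leaves out Map2k6 and Map3k9.

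Without each sample in turn, log2 differences ranged from -2.55 to -2.52 (Map2k1), -2.70 to -2.66 (Map2k4), -2.15 to -1.96 (Map2k6), -2.29 to -2.05 (Map3k1), -2.73 to -2.59 (Map3k5), -1.89 to -1.88 (Map3k7) and 1.19 to 1.42 (Map3k9), and panel counts from 87 to 94 higher and 132 to 134 lower. A count model was not run, since values under 20 are censored and the recovered counts rest on a reading of the values that the labels do not state. Map2k6 with BMS-202 and Map3k9 with UV lie at or under background, which limits both readings. The BMS-202 samples also had fewer gene counts than the UV samples.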
